A study of Homo sapiens with 24 samples.

Results

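The genes examined encode neurofilament subunits, other proteins of the axonal cytoskeleton, a growth cone protein and a ubiquitin hydrolase. All were chosen by symbol. They were TUBB3, UCHL1, NEFL, NEFM, NEFH, PRPH, INA, MAPT, STMN2 and GAP43, of which the first entry per symbol was used. All 10 were among the 36468 entries of the count table and among the 29377 entries that remained once those with fewer than 10 counts summed across the 24 libraries had been removed. Whole cultures of sensory neurons, differentiated by way of vagal neural crest spheroids from the human embryonic stem cell line H9WAO9 (wild type), were sequenced as polyA RNA. There were 6 batches of differentiation, and each gave 1 library of each of 4 groups. Vehicle cultures received bovine serum albumin in PBS, TGF-β cultures 2 ng/ml of that cytokine, and IL-4+IL-13 cultures both interleukins, at 10 and 3 ng/ml in that order, over 5 days. The fourth group was labelled IL-6, and its dose and duration were not given in the sources used here. All libraries came from a single cell line, the cultures were not sorted, and the total count per library was between 33342682 and 39817784. The study asked whether these cytokines alter such neurons. The comparisons below ask whether the 10 genes differed between the groups and whether they followed the level of neuron marker genes in each library.

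Axons are held open and spaced by neurofilaments, in which the light, medium and heavy subunits assemble together with α-internexin in central neurons and with peripherin in peripheral neurons. Their growth depends on microtubules built from neuronal β-tubulin, which tau stabilises and stathmin family proteins destabilise, and on membrane-associated growth cone proteins. So far as neurons express these genes, their level in the RNA of a mixed culture depends on how many cells are neurons. It also depends on how much of each transcript a neuron holds. Whether other cells of these cultures expressed them was not tested. In bulk libraries such as these, fewer neurons and less RNA per neuron cannot be told apart.

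The 250 bases before the start of 4 of these genes are shown. With all libraries, INA and PRPH rose with the level of neuron marker genes, and UCHL1 and TUBB3 had the shallowest slopes, as described below. This contrast depended on the batches used. Without batch 1, the slopes of PRPH and UCHL1 were 0.93 and 0.92. The sequences are from RefSeq on GRCh38.p14, whose promoter table held 5 of the 10 genes, and all 4 are on the plus strand: INA at chr10:103276888-103277137, PRPH at chr12:49294897-49295146, UCHL1 at chr4:41256678-41256927 and TUBB3, for the first of its 2 listed starts, at chr16:89921675-89921924. Capitals mark a TATA box (TATAAA), a GC box (GGGCGG), the box named CCAAT by its letters, an E-box (CAGCTG) or a cAMP response element (TGACGTCA), each searched on both strands.
INA: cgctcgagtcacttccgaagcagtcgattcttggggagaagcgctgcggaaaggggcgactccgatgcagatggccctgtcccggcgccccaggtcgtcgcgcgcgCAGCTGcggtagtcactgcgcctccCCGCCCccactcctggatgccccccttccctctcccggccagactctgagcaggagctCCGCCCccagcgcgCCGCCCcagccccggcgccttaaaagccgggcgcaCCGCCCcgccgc
PRPH: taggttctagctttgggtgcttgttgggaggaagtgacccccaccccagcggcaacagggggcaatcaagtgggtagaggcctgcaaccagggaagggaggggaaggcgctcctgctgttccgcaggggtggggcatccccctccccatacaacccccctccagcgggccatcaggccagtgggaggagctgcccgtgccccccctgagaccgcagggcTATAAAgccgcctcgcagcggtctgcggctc
UCHL1: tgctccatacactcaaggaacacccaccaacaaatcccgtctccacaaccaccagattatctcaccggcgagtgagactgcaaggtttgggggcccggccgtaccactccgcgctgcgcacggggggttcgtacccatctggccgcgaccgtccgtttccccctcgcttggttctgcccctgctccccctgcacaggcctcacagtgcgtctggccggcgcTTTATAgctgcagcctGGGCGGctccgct
TUBB3: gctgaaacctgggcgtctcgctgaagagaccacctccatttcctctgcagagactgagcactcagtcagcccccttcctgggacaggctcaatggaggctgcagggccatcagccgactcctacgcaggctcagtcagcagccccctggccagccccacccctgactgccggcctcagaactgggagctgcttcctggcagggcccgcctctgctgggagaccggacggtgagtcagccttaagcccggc

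The INA sequence held 4 GC boxes and 1 E-box, that of PRPH 1 TATA box, that of UCHL1 1 TATA box and 1 GC box, and that of TUBB3 none of the 5 motifs. Of all 35116 upstream sequences of this length in the table, 10.7% held the TATA box, 42.6% the GC box, 32% the CCAAT box, 14% the E-box and 1.65% the cAMP response element. These matches describe the letters only.

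The level of these genes differed far more between batches than between treatments. Levels are given as CPM, the counts of a gene relative to the TMM-scaled size of its library, and comparisons on the log2 CPM scale. All 10 genes had their lowest batch mean in batch 1. The highest batch mean was in batch 3 for 8 of them, in batch 2 for TUBB3 and in batch 4 for PRPH. The batch means spanned 12.8-fold for NEFL, 9.53-fold for NEFH and 8.34-fold for NEFM, the 3 neurofilament triplet genes. For MAPT, STMN2, INA, GAP43, TUBB3 and PRPH the span was 4.73-fold, 4.49-fold, 3.92-fold, 3.76-fold, 3.35-fold and 3.05-fold. UCHL1, which encodes the ubiquitin hydrolase known as PGP9.5, spanned 1.92-fold and was the steadiest of the 10. Batch accounted for between 79.4% (UCHL1) and 95.4% (NEFM) of the variance of log2 CPM over the 24 libraries.

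**Figure D1:**
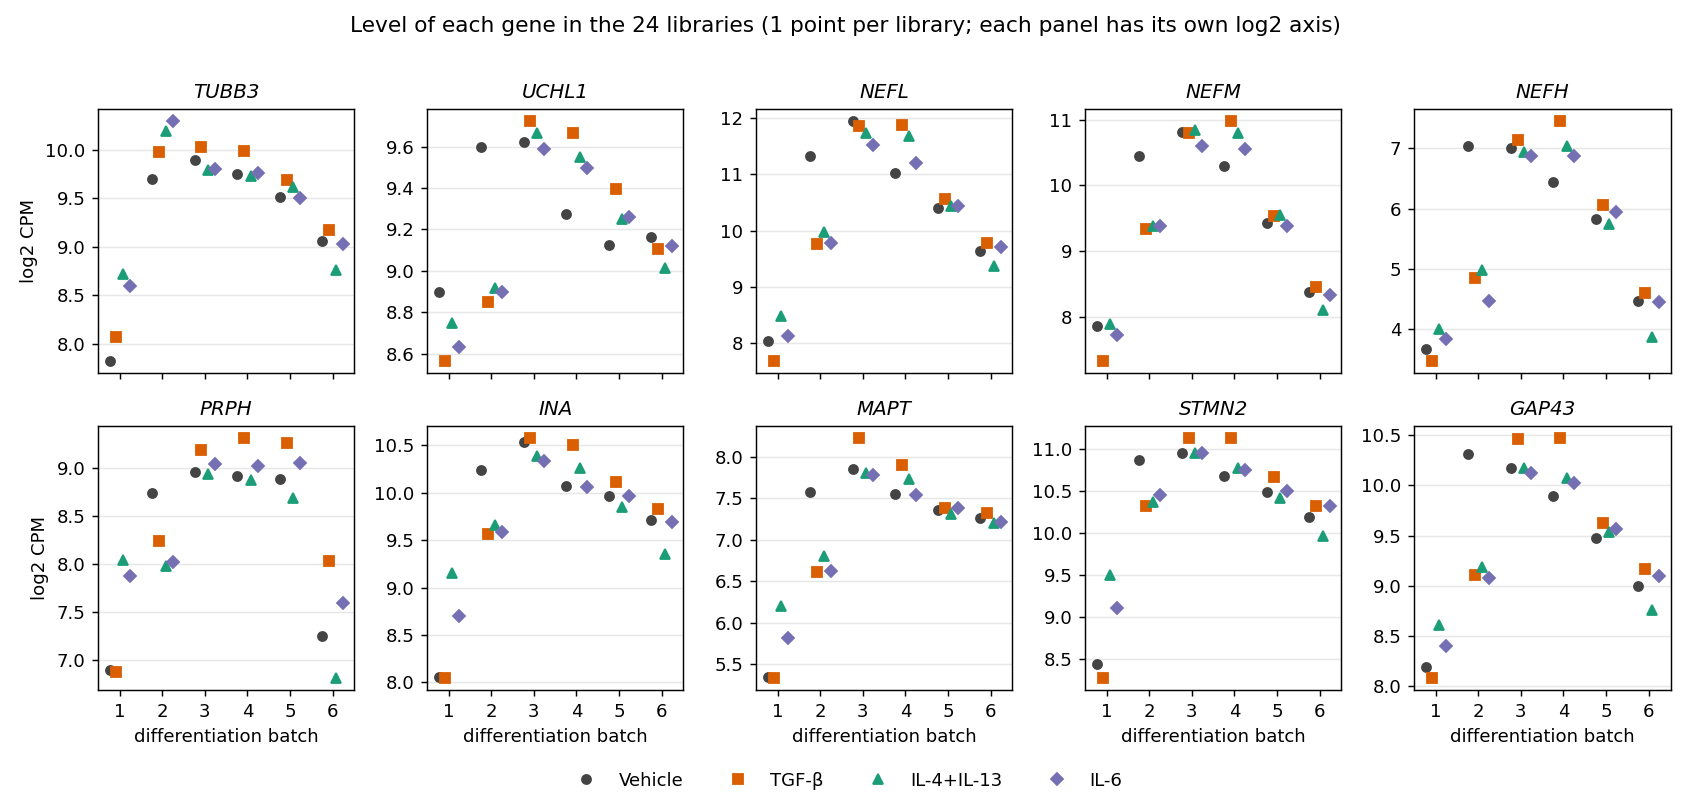
Each panel plots the log2 CPM of 1 gene (y axis, its own scale) in the 24 libraries by differentiation batch (x axis), with 1 point per library and the 4 groups shown by colour and shape. The batch means of all 10 genes are lowest in batch 1, although the lowest single library of PRPH, at 113 CPM, is in batch 6, and in batch 2 the Vehicle library stands above the 3 treated libraries for every gene except TUBB3, where it stands below them.

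The batches also differed in the marker genes of other cells. The summed level of 12 mesenchymal marker genes was between 4910 and 13527 CPM in the 4 libraries of batch 1, where the summed level of 20 neuron marker genes was between 1429 and 2526 CPM. In batch 3 the same sums were 4720 to 6502 CPM and 6928 to 8259 CPM. SNAP25, a synaptic vesicle fusion gene that marks neurons, was at 46.3 to 405 CPM over the 24 libraries, COL1A1, a collagen gene of mesenchymal cells, at 712 to 8311 CPM, and SOX10, a glial transcription factor gene, at no more than 0.671 CPM in any library. In batch 2 the Vehicle library and the 3 treated libraries stood apart from each other. Whether they belong to 1 batch cannot be told from the files, which bears on every within-batch difference and slope that uses them. The 8 proliferation marker genes summed to 77.4 CPM in that Vehicle library and to 440 to 611 CPM in the treated ones. In the other batches this sum was 22.3 to 168 CPM in Vehicle libraries. It was 42.5 to 76.3 CPM with TGF-β, 49.3 to 175 with IL-4+IL-13 and 52.8 to 128 with IL-6. By this sum, the treated libraries of batch 2 lay outside the other batches and its Vehicle library did not. The tests below are given with this Vehicle library, and the values that moved most are also given without it.

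Per length of transcript, the most abundant of the genes in Vehicle cultures was STMN2, which encodes the microtubule-destabilising protein stathmin-2. Its median over the 6 Vehicle libraries was 808 CPM per kb, with a range of 183 to 1042. GAP43, a growth cone protein gene, followed at 554 (195 to 849), then UCHL1 at 540 (433 to 714), NEFL at 477 (73.2 to 1097) and TUBB3, the neuronal β-tubulin gene, at 458 (132 to 560). The ranges of these 5 genes overlapped, and the order of neighbouring medians was within their spread over batches. INA, the α-internexin gene, had a median of 319 CPM per kb (81.7 to 458), NEFM 297 (71.0 to 547) and PRPH, the peripherin gene, 250 (66.3 to 276). MAPT, the tau gene, had a median of 104 CPM per kb (25.3 to 152) with its 3 entries summed. NEFH, the heavy neurofilament subunit gene, was lowest at 18.9 CPM per kb (3.34 to 34.6), and its range lay below those of the other genes except MAPT, whose lowest library it overlapped.

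MAPT was the only one of the 10 with several entries in the count table. The first, used in all tests here, held a median of 24.3% of the MAPT counts of a library, with a range of 22.2% to 26.6%. The second held a median of 50.9% and the third one of 25%, so the share of each entry varied little over batches and groups. In the RefSeq annotation of GRCh38.p14, the span of MAPT on chromosome 17 (45894554 to 46028334) also holds MAPT-AS1, MAPT-IT1, LOC105371800 and STH. PRPH on chromosome 12 (49295147 to 49298686) overlaps TROAP-AS1, NEFL on chromosome 8 (24950955 to 24956612) overlaps MIR6841 and STMN2 on chromosome 8 (79611117 to 79666158) overlaps LOC105375916. The strandedness of the libraries is not given in the sources used here, so reads in these overlaps could not be assigned to 1 gene. No other gene overlaps TUBB3 (chromosome 16, 89921925 to 89936097), UCHL1 (chromosome 4, 41256928 to 41268455), NEFM (chromosome 8, 24913761 to 24919093), NEFH (chromosome 22, 29480218 to 29491390), INA (chromosome 10, 103277138 to 103290346) or GAP43 (chromosome 3, 115623510 to 115721483).

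The makeup of the neuronal intermediate filament transcripts differed between batches. It was measured as the share of each of the 5 subunit genes in their summed CPM per kb. NEFL, the core light subunit gene, made up 19.3% to 24.8% of the sum in batch 1 and 40.6% to 45.5% in batch 3. INA made up 35.7% to 38.3% in batch 6 and 17.6% to 20.9% in batch 4. The share of PRPH was between 20.1% and 25.3% in batch 5 and between 11.5% and 14.5% in batch 3. NEFH never made up more than 1.93% of the sum, a share reached by the Vehicle library of batch 2.

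**Figure D2:**
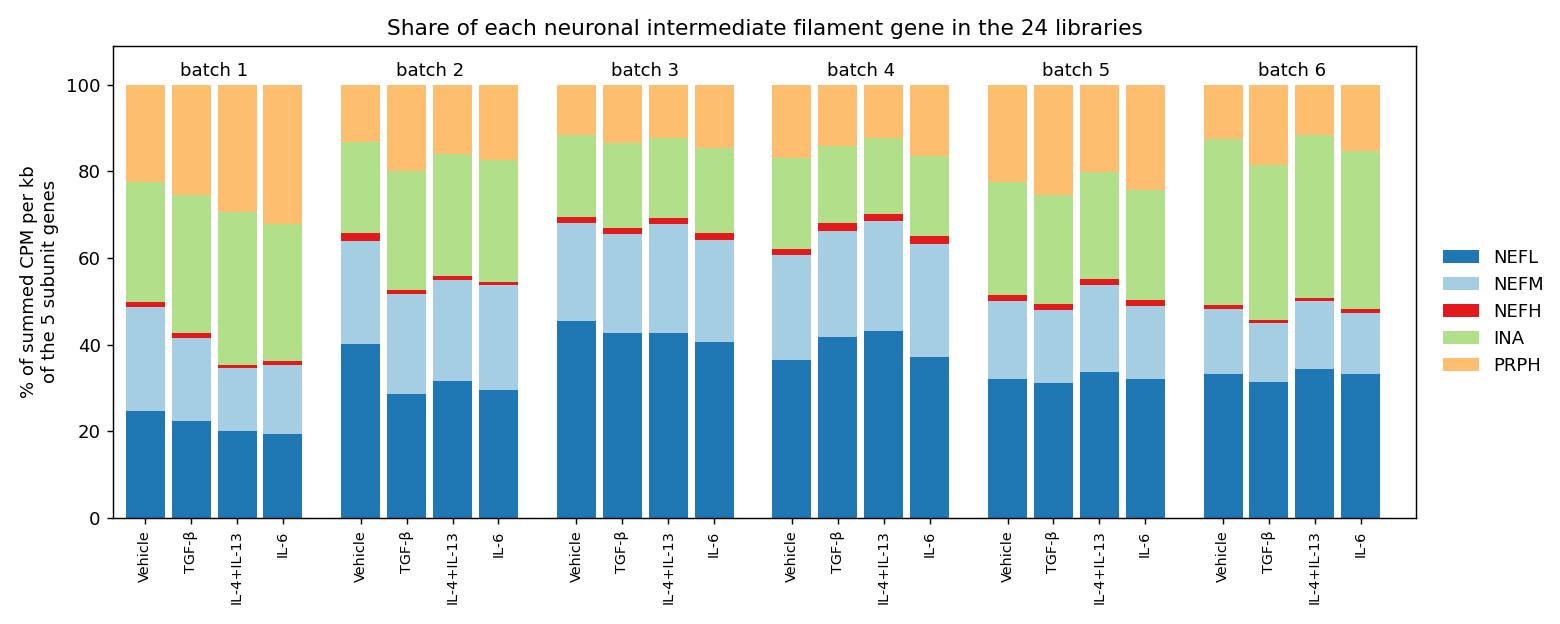
Stacked bars show the percent of the summed CPM per kb that each of 5 neuronal intermediate filament genes made up (y axis, from 0) in the 24 libraries (x axis, by group within batch). The NEFL share reaches its highest value, 45.5%, in batch 3 and that of INA its highest, 38.3%, in batch 6, and within batch 2 the Vehicle bar has a larger NEFL share, 40.1%, than the 3 treated bars.

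None of the 10 genes passed the test in any comparison between groups. The test was edgeR's quasi-likelihood F test with batch in the model, and a gene passed at a Benjamini-Hochberg adjusted p under 0.05 over all 29377 genes. Between TGF-β and Vehicle, 0 of 10 passed, while 0.347% of all genes did. Between IL-4+IL-13 and Vehicle, 0 of 10 passed, against 0.633% of all genes. Between IL-6 and Vehicle, no gene of the genome passed in edgeR, with 0% called and 1400 genes (4.77%) at an unadjusted p under 0.05. DESeq2 called 132 genes (0.449%) for IL-6, 1.72% of all genes for TGF-β and 1.95% for the combination of interleukins, and 0 of the 10 in each. The 3 comparisons share the Vehicle libraries, so they are not independent of each other. Among the treatments, 0 of 10 passed between TGF-β and IL-4+IL-13 (2.98% of all genes), between TGF-β and IL-6 (0.0783%) and between IL-4+IL-13 and IL-6 (0.456%), and 0 of 10 passed a joint test of any difference between the 4 groups (1.81%). The median log2 difference of the 10 genes against Vehicle was -0.04 with TGF-β, -0.07 with IL-4+IL-13 and -0.13 with IL-6, beside a median of -0.01 over all genes in each of these comparisons.

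TUBB3 was the gene whose TGF-β values were most regular. In Vehicle cultures it was at 225 CPM in the lowest library, with a median of 781 and a highest value of 956. In TGF-β cultures the lowest, median and highest values were 269, 917 and 1043 CPM. The groups overlapped widely, but within each batch the TGF-β library was above the Vehicle library, by 0.12 to 0.28 on the log2 scale (mean 0.20 ± 0.07, SD, n = 6 batches). Of all genes, 1.61% were higher with TGF-β in every batch. In edgeR the log2 difference of TUBB3 was 0.19 (SE 0.12) with an adjusted p of 0.840, which did not pass. This SE rests on 1 spread estimated over all 4 groups, and not on the TGF-β and Vehicle pairs alone. The within-batch differences of TUBB3 had SDs of 0.44 with IL-4+IL-13 and 0.38 with IL-6. The IL-4+IL-13 libraries were at 421, 816 and 1173 CPM (lowest, median and highest) and the IL-6 libraries at 385, 797 and 1258 CPM. Against Vehicle, IL-4+IL-13 was above in 3 of 6 batches and IL-6 in 3 of 6. Their log2 differences in edgeR were 0.18 (SE 0.12) and 0.20 (SE 0.12), with adjusted p values of 0.698 and 0.850. The largest single differences were those of batch 1, at 0.90 with IL-4+IL-13 and 0.77 with IL-6.

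NEFH and NEFL had the widest spread of within-batch differences, with SDs of 0.99 and 0.69 over the 18 values, and their lowest values were those of batch 2. NEFL was at 262, 1709 and 3930 CPM in Vehicle (lowest, median and highest), 205, 1195 and 3765 in TGF-β, 356, 1191 and 3401 in IL-4+IL-13 and 280, 1133 and 2928 in IL-6. All 4 groups overlapped over nearly their whole range. In batch 2, however, the Vehicle library was at 2574 CPM and the 3 treated libraries at 866, 1000 and 881 CPM. The log2 differences in edgeR were -0.18 (SE 0.23) with TGF-β, -0.17 (SE 0.23) with IL-4+IL-13 and -0.33 (SE 0.23) with IL-6, with adjusted p values of 0.964, 0.873 and 0.850. Without the Vehicle library of batch 2, the TGF-β and IL-4+IL-13 differences were 0.13 and 0.15, that is, of the opposite sign, and the IL-6 difference was -0.011. None of the 3 passed.

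NEFH behaved alike and more widely. It was at 12.7, 71.9 and 131 CPM in Vehicle, 11, 47.7 and 175 in TGF-β, 14.5, 42.5 and 132 in IL-4+IL-13 and 14.1, 41.8 and 117 in IL-6. Again the 4 groups overlapped. In batch 2 its Vehicle library was at 131 CPM and the treated libraries at 28.8, 31.3 and 22 CPM, whereas in batch 4 the TGF-β library was 2.01-fold above the Vehicle library. The edgeR log2 differences were -0.25 (SE 0.33) with TGF-β, -0.44 (SE 0.33) with IL-4+IL-13 and -0.44 (SE 0.33) with IL-6, with adjusted p values of 0.964, 0.727 and 0.850. Without the Vehicle library of batch 2 they were 0.26, 0.10 and 0.06. NEFM, which encodes the medium subunit, had medians of 973 CPM in Vehicle and 692, 709 and 667 CPM in the 3 treated groups. Its log2 differences were -0.15 (SE 0.16), -0.14 (SE 0.16) and -0.24 (SE 0.16), none of which passed, and without the Vehicle library of batch 2 they were 0.05, 0.07 and -0.029.

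**Figure D3:**
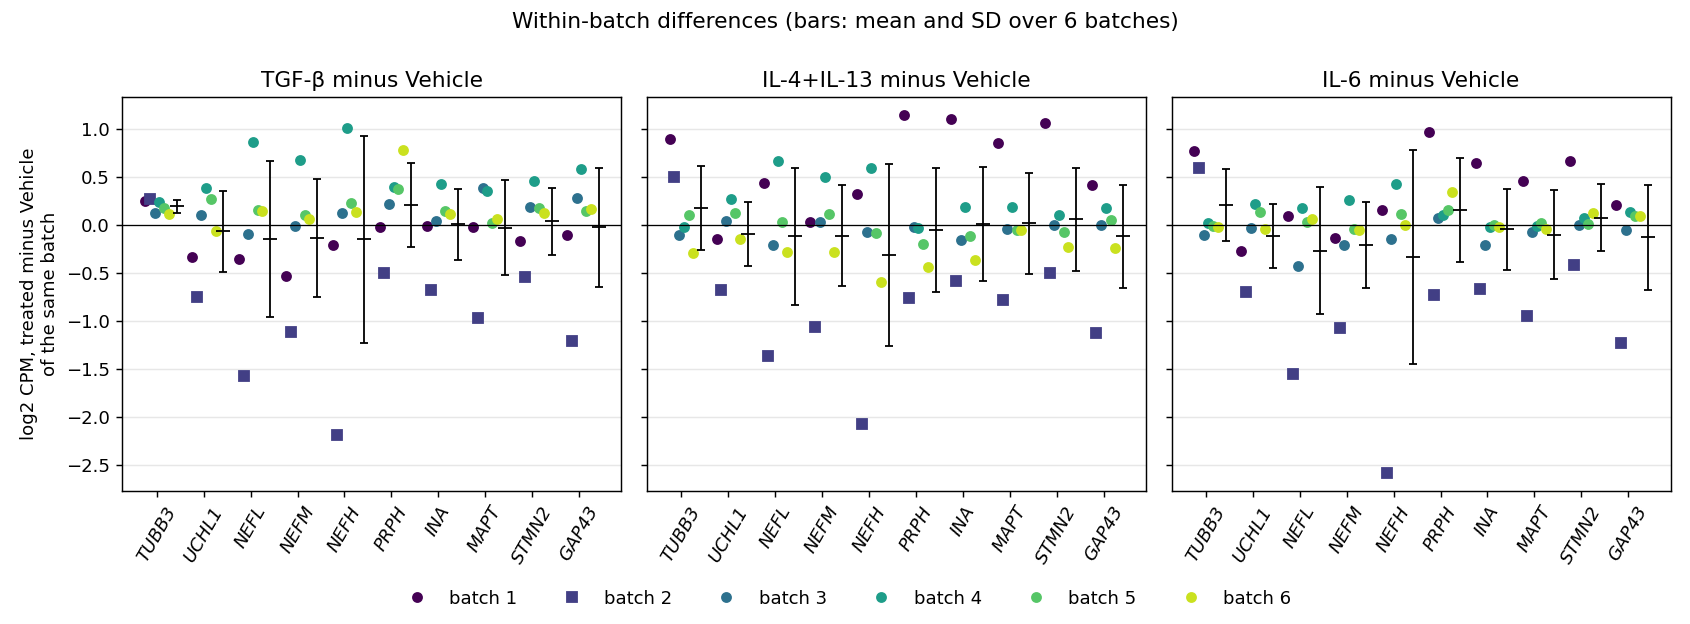
Points give the log2 CPM of a treated library minus that of the Vehicle library of the same batch (y axis) for the 10 genes (x axis), in 1 panel per treatment, with colours for batches, squares for batch 2, and black bars for the mean and SD over 6 batches. The squares are the lowest points for all genes except TUBB3, and the 6 points of TUBB3 under TGF-β all lie between 0.12 and 0.28.

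PRPH was the gene that differed most often in one direction between the cultures given TGF-β and those given the interleukin pair. With TGF-β it was at 118, 442 and 637 CPM (lowest, median and highest), with IL-4+IL-13 at 113, 338 and 490, with IL-6 at 194, 389 and 529, and with Vehicle at 119, 450 and 498. The groups overlapped, yet within batches the TGF-β library was above the IL-4+IL-13 library in 5 of 6. The exception was batch 1, at 118 and 264 CPM. The edgeR log2 difference between the treatments was 0.26 (SE 0.22), with an adjusted p of 0.746. With batches 1 and 2 both left out, a setting chosen after seeing the data, it was 0.61 (SE 0.11) with an adjusted p of 0.0053, and TUBB3 at 0.24 (adjusted p 0.0449) and STMN2 at 0.28 (adjusted p 0.0346) also passed between TGF-β and IL-4+IL-13. In that setting 7.16% of all genes passed this comparison. In the joint edgeR test of the 4 groups, PRPH alone of the 10 passed there (adjusted p 0.0255), beside 3.80% of all genes. Against Vehicle in that setting, PRPH had a TGF-β difference of 0.46 (SE 0.11) and an adjusted p of 0.0626, and 0 of the 10 genes passed. Of all genes, 1.23% passed there with TGF-β, 0.854% with IL-4+IL-13 and 0% with IL-6.

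For INA, MAPT, STMN2, GAP43 and UCHL1 the differences from Vehicle lay between -0.16 and 0.07 on the log2 scale in all 3 comparisons, with standard errors of 0.11 to 0.18. INA had medians of 1038 CPM in Vehicle, 1011 with TGF-β, 866 with IL-4+IL-13 and 916 with IL-6. The medians of MAPT were 176, 164, 154 and 158 CPM, in the same order. STMN2 medians were 1538, 1457, 1346 and 1428 CPM. GAP43 had medians of 831, 683, 663 and 654 CPM, and UCHL1 had medians of 596, 612, 563 and 585 CPM. None of these 5 genes was in the same direction in every batch for any treatment. At 6 batches the standard errors leave room for modest differences in either direction, so a failed test does not show that the groups were alike.

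The neuron marker level of each library was then compared between groups. It was the mean log2 CPM of 20 neuron marker genes (among them SNAP25, ELAVL4, RBFOX3 and SYN1), none of which is one of the 10 genes. It was between 5.56 and 8.22 over the TGF-β libraries, which span its whole range over the 24. Its mean difference from Vehicle was -0.01 ± 0.43 (SD, n = 6 batches) with TGF-β, -0.04 ± 0.46 with IL-4+IL-13 and -0.09 ± 0.40 with IL-6. Two-sided exact sign-flip tests over the 6 batches gave p values of 0.969, 0.781 and 0.688, all 3 at 0.969 after Benjamini-Hochberg adjustment, where the smallest p that 6 batches allow is 0.03125. In batch 2 the level was 7.89 in the Vehicle library and 7.07 to 7.18 in the treated libraries. In batch 1 it was 5.70 in the Vehicle library, 5.56 with TGF-β, 6.11 with IL-6 and 6.39 with IL-4+IL-13.

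The within-batch changes of most of these genes went with that neuron marker level. It was entered as a term beside batch and treatment in edgeR, which asks how a gene varied with it among libraries of the same batch. The markers and the 10 genes were counted in the same libraries and share their scaling. In this fit 9 of the 10 genes passed, all with a higher level where neuron markers were higher, while 12.3% of all genes passed and 8.24% passed in that direction. Again 9 of 10 passed without the Vehicle library of batch 2, with TUBB3 in place of UCHL1, as did 4.77% of all genes. Without batch 1 it was 9 of 10 and 27.5%, and without batch 2 it was 8 of 10 and 4.48%. The median slope of the 10 genes was 1.08 log2 units per unit of the neuron marker level, beside -0.0066 over all genes.

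The slopes differed between the genes. With all libraries they were largest for the filament genes NEFH (1.81, SE 0.25), NEFL (1.37, SE 0.15) and PRPH (1.32, SE 0.15). INA (1.12, SE 0.09), GAP43 (1.08, SE 0.12), STMN2 (1.07, SE 0.10), MAPT (1.04, SE 0.09) and NEFM (0.92, SE 0.15) had slopes less than 2 SE from 1. A slope of 1 is that of a gene that moves by as much as the neuron markers do. The MAPT value is that of its first entry. With the entries of each symbol summed, MAPT was at 1.18 (SE 0.07), more than 2 SE from 1. The order of the slopes depended on batches 1 and 2. Without the Vehicle library of batch 2, the slopes were 1.52 (SE 0.20) for PRPH, 1.31 (SE 0.10) for STMN2, 1.30 (SE 0.10) for INA, 1.02 (SE 0.17) for NEFL and 1.00 (SE 0.20) for NEFH. MAPT was then at 0.93 (SE 0.12), GAP43 at 0.75 (SE 0.10) and NEFM at 0.63 (SE 0.17), so that INA, STMN2, GAP43 and NEFM lay more than 2 SE from 1. Without batch 1, the slopes were 2.68 (SE 0.18) for NEFH, 1.91 (SE 0.14) for NEFL, 1.46 (SE 0.11) for GAP43 and 1.39 (SE 0.13) for NEFM. MAPT was then at 1.06 (SE 0.13), PRPH at 0.93 (SE 0.19), INA at 0.88 (SE 0.10) and STMN2 at 0.76 (SE 0.10). There, GAP43, NEFM and STMN2 also lay more than 2 SE from 1. With single batches left out, the NEFH slope was between 0.98 and 2.68. With all libraries, UCHL1 passed with the shallow slope of 0.49 (SE 0.12, adjusted p 0.0127). TUBB3, at 0.39 (SE 0.19), did not pass (adjusted p 0.203). The adjusted p values of the other 8 genes were between 2.470e-07 (INA) and 3.089e-04 (NEFM).

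The results for TUBB3 and UCHL1 also depended on single batches. Without the Vehicle library of batch 2, TUBB3 had a slope of 0.90 (SE 0.14) and passed with an adjusted p of 5.073e-04, whereas UCHL1 had one of 0.21 (SE 0.14) and did not pass (adjusted p 0.482). In batch 2 the 2 genes went apart. The Vehicle library had 831 CPM of TUBB3 and 774 CPM of UCHL1, and the treated libraries had 1007 to 1258 CPM of TUBB3 and 462 to 483 CPM of UCHL1. Without batch 1, the TUBB3 slope was -0.17 (SE 0.21) and that of UCHL1 0.92 (SE 0.10). Without both batches, 6 of the 10 genes passed (NEFL, NEFM, NEFH, INA, STMN2 and GAP43), against 2.32% of all genes. NEFM had a slope of 0.63 and an adjusted p of 0.0607 without batch 2, and one of 1.39 without batch 1.

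**Figure D4:**
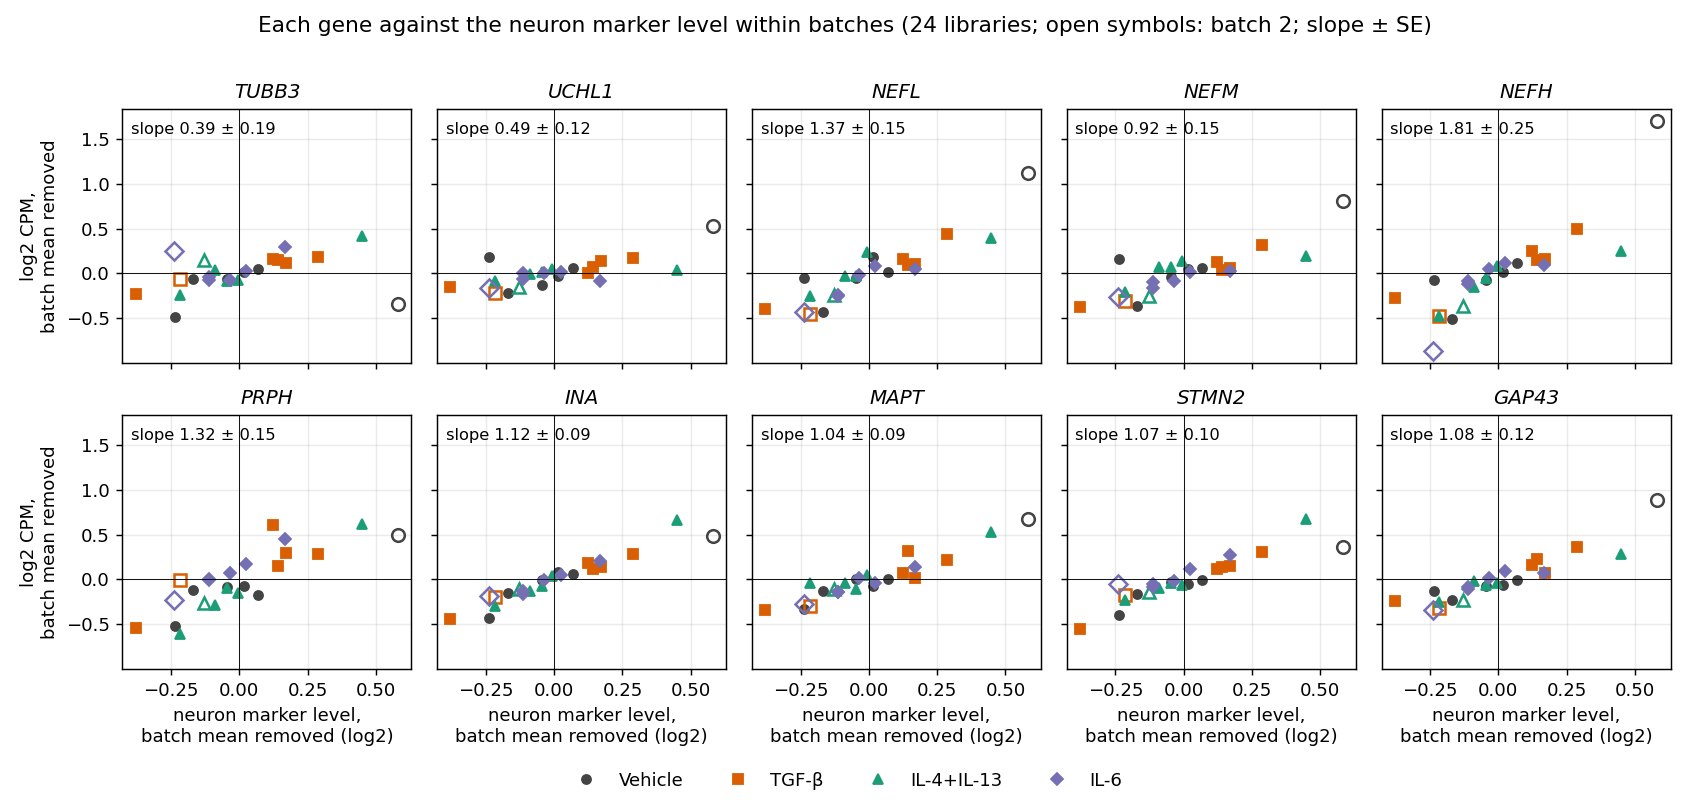
Each panel plots the log2 CPM of 1 gene (y axis) against the neuron marker level (x axis, log2), both with the batch mean removed, for the 24 libraries, with groups by colour and shape and batch 2 as open symbols; the slope and its SE from edgeR are printed in each panel. Points climb from left to right in 9 panels, and the open circle of the Vehicle library of batch 2, at the far right, lies high in these panels and among the lowest points in the TUBB3 panel.

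The direction of the single differences is given as a description, since the 3 differences of a batch share its Vehicle library and the neuron marker difference comes from the same libraries. Of 18 differences between a treated and a Vehicle library of 1 batch, the sign matched that of the neuron marker difference in 18 for NEFH, in 17 each for INA and MAPT, in 15 each for NEFL, PRPH, STMN2 and GAP43, in 13 each for UCHL1 and NEFM, and in 11 for TUBB3. The median count was 15 over the 10 genes and 8 over all 29377 genes, which include many of very low counts. Without the 3 differences of batch 2 these counts were 15 of 15 for NEFH, 14 for INA and MAPT, 12 for NEFL, PRPH, STMN2 and GAP43, 11 for TUBB3 and 10 for UCHL1 and NEFM. Subtracting the neuron marker difference narrowed the spread of the 18 values most in proportion for MAPT, from an SD of 0.47 to one of 0.13, for INA, from 0.44 to 0.14, and for STMN2, from 0.39 to 0.14. In SD units it narrowed most for NEFH, from 0.99 to 0.64. For TUBB3 it widened the spread, from 0.32 to 0.49. With the neuron marker level as a term in the treatment model, 0 of the 10 genes passed for any treatment. Of all genes, 0.453% then passed against Vehicle with TGF-β, 0.769% with IL-4+IL-13 and 0% with IL-6. The smallest adjusted p of the 10 genes against Vehicle was 0.413, that of PRPH for TGF-β (log2 difference 0.24, SE 0.10).

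A ratio of neuron to mesenchymal markers gave a narrower result. When the log2 ratio of the summed neuron to the summed mesenchymal marker CPM replaced the neuron marker level, 3 of the 10 genes passed, TUBB3, INA and STMN2, against 2.90% of all genes. TUBB3 then had a slope of 0.47 (SE 0.09) and an adjusted p of 0.0065, and UCHL1 one of -0.0037 (SE 0.12). Of the 12 mesenchymal marker genes, 4 also rose with the neuron marker level within batches (LUM, COL3A1, DCN and COL6A3, genes of extracellular matrix proteins), with slopes of 1.90, 2.11, 1.96 and 1.33. None of the 8 smooth muscle, 8 proliferation or 6 melanocyte marker genes passed, and 1 of the 10 glial marker genes did. Of 6 epithelial marker genes 1 rose, and of 5 endothelial ones 1 fell. Among 4 tested pluripotency marker genes 1 rose and 1 fell. Over all genes, 8.24% rose and 4.10% fell. The Vehicle library of batch 2, highest in its batch for neuron markers, also had the highest mesenchymal sum of its batch, 8692 CPM against 3804 to 5007 CPM.

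Most genes of a separate axonal cytoskeleton list moved in the same way. This list of 42 held tubulins, microtubule-associated proteins, kinesins, spectrins and growth cone proteins and none of the 10 genes. In it, 31 genes rose with the neuron marker level and 0 fell, while 8.24% of all genes rose and 4.10% fell. The median slope of the list was 0.66. The smallest p values were those of TUBB4A, a neuronal β-tubulin gene (slope 1.12, SE 0.09), KIF3C (0.85, SE 0.08), a kinesin motor gene, MAP7D2 (1.5, SE 0.14), a microtubule-associated protein gene, and TTC9B (1.23, SE 0.13). Among the 11 that did not pass were TUBA1A, TUBB2B, STMN1 and MARCKS, with slopes of 0.19, 0.34, 0.42 and -0.30. Of 8 intermediate filament genes of other cells, VIM (-0.46, SE 0.11) and NES (-0.73, SE 0.21), the vimentin and nestin genes of mesenchymal and progenitor cells, fell as neuron markers rose, and SYNM, the synemin gene, rose (0.42, SE 0.11). Of the 7 tested genes of axon injury and regeneration, TUBB6 fell (-0.54, SE 0.15), and ATF3, JUN, SOX11, GAL, KLF6 and CSRP1 did not pass.

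Between TGF-β and IL-4+IL-13, 1 of the 42 genes passed, beside 2.98% of all genes. It was TPPP3, a tubulin polymerization gene, which was lower with TGF-β (-0.50, SE 0.08, adjusted p 0.0016). In that comparison DESeq2 called 1 of the 42 higher and 1 lower, beside 5.35% of all genes. Neither count exceeded the share over all genes. In the 2 other comparisons among treatments 0 of the 42 passed, and 0 of the 42 axonal cytoskeleton genes passed against Vehicle, and their median log2 difference was 0.02 with TGF-β, -0.03 with IL-4+IL-13 and -0.06 with IL-6. For TGF-β the smallest p among those with a positive difference was that of MARCKS (0.18, SE 0.13, adjusted p 0.876), and among those with a negative one that of TPPP3 (-0.29, SE 0.08, adjusted p 0.224). For IL-4+IL-13 these were TPPP3 (0.21, SE 0.08, adjusted p 0.430) and the doublecortin-like kinase gene DCLK1 (-0.37, SE 0.13, adjusted p 0.352). For IL-6 they were STMN1 (0.23, SE 0.13, adjusted p 0.850) and DST, the dystonin gene (-0.24, SE 0.10, adjusted p 0.850).

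Several of the 10 genes varied closely together within batches. With batch means removed, Pearson's r over the 24 libraries was 0.963 for INA and STMN2, 0.962 for NEFL and NEFM and 0.960 for NEFH and GAP43. For TUBB3 it was -0.263 with UCHL1 and 0.022 with NEFL. Over the 23 libraries without the Vehicle library of batch 2, these values were 0.963, 0.904, 0.879, 0.118 and 0.599, in the same order. These values describe libraries that share batch, depth and scaling. The genes most like each member, at most 2 for each, among 11492 genes with a mean of at least 10 CPM, were mostly genes of synaptic and neuronal proteins. They were SYT13 (0.981) and NAPB for NEFL, SYN1 (0.982) and RASSF5 for NEFH, ATP6V0E2 (0.968) and RAB6B for NEFM, RAB3C (0.975) for INA, and GALNT14 (0.934) and SCG3 for PRPH. For the other genes they were SCN2A (0.957) and VSTM2A for MAPT, SEPTIN3 (0.971) and GNG2 for STMN2, OLFM1 (0.976) and SNAP25 for GAP43, CEND1 (0.977) and NDRG4 for UCHL1, and TMEM169 (0.928) and ZNF512 for TUBB3. The r of these genes with their member was between 0.893 and 0.976 without the Vehicle library of batch 2. SNAP25, SYN1 and SCG3 are also among the 20 neuron markers.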

How the data were processed

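RNA of whole cultures was sequenced from 24 libraries, 1 for each of 4 groups in each of 6 batches. Counts of reads for each gene, not normalized, were deposited, and the authors' sequencing provider made them by adapter trimming (Trimmomatic 0.30), alignment to GRCh38.p14 and counting. The aligner, the counter and the strandedness are not given in the sources used here. The genes and lists were chosen with earlier results of these data known, so that none is independent support. Entries with fewer than 10 counts in all libraries together were removed. edgeR 4.0.16 in R 4.3.3 (TMM, robust quasi-likelihood F test, batch and treatment in the model, Benjamini-Hochberg adjustment over 29377 genes) was the main test, and DESeq2 1.42.0 was run beside it. Standard errors were derived from the log2 change and the F statistic. Log2 CPM used a prior count of 2. Lengths are of GENCODE v44 canonical transcripts. The scripts were tested on simulated data.

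Groups and batches came from the labels, and the labels' batch pairs the libraries. After group means were removed, the median correlation over all genes was 0.459 between libraries of the same batch (36 pairs) and -0.136 between those of different batches (240 pairs). Named genes were the 10 members; of the axonal cytoskeleton list, those with the smallest p in each direction per comparison; the genes most like each member, at most 2 for each; and the defining markers of cell types. Genes named from other lists were chosen after their values were seen. Libraries of 33342682 to 39817784 counts gave at least 359 counts of each member in each library. The edgeR and DESeq2 p values rest on 1 estimate of spread per gene over all libraries of the fit. They do not rest on the paired differences of 1 treatment alone. All libraries came from 6 batches of 1 cell line. Some genes that this rule names are not reported here.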

Additional observations from a re-analysis of the deposited data

Results flagged for a closer look

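In 5 of 44 sets of 6 libraries (10 genes and the neuron marker level in 4 groups), the lowest library lay far from the rest by Dixon's test. Chance alone gives about 1 in 20 for a single set, but these sets share their libraries and are not independent. All 5 of the lowest values were from libraries of batch 1. INA was at a log2 CPM of 8.05 in Vehicle, with the nearest other library at 9.71. MAPT was at 5.35 in Vehicle, with the nearest other at 7.26. STMN2 was at 8.44 in Vehicle, 8.28 with TGF-β and 9.11 with IL-6, where the nearest others were at 10.20, 10.33 and 10.33.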

How the results depend on the processing

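Of 470 log2 differences of the 10 genes from Vehicle under other settings, 396 kept their direction, 74 reversed and 0 passed the threshold, with a lowest adjusted p of 0.0626. With DESeq2, size factors or filterByExpr the MAPT difference with IL-4+IL-13 was -0.0015, -0.0024 or -0.0023. With the neuron marker level as a covariate, INA with IL-6 was 0.051 and PRPH with IL-4+IL-13 0.0022. With the ratio of neuron to mesenchymal markers, the neuron measure differed from Vehicle by 0.39 with IL-4+IL-13 and 0.054 with IL-6, and 3 genes passed for it. The IL-4+IL-13 difference came mostly from batch 1, where the log2 ratio was -2.78 in Vehicle and -0.96 with IL-4+IL-13. With TGF-β the mean difference stayed negative. The cause of these changes was not tested.

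The batch pairs the libraries. With no replicate block, 0 of the 10 genes passed against Vehicle and 10 for the neuron marker level. Of all genes, 0 passed with TGF-β, 13 with IL-4+IL-13, 0 with IL-6 and 42.9% for the neuron marker level. GAP43, MAPT and NEFH were then at 0.037, 0.056 and 0.025 with TGF-β, INA, MAPT and STMN2 at -0.094, -0.057 and -0.049 with IL-4+IL-13, and STMN2 at -0.0089 with IL-6.

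Without the Vehicle library of batch 2, the differences of UCHL1, NEFL, NEFM, NEFH, MAPT and GAP43 with TGF-β were 0.053, 0.13, 0.053, 0.26, 0.15 and 0.20. Those of UCHL1, NEFL, NEFM, NEFH, PRPH and GAP43 with IL-4+IL-13 were 0.029, 0.15, 0.073, 0.096, 0.14 and 0.11, and those of UCHL1, NEFH, INA, MAPT and GAP43 with IL-6 were 0.0022, 0.057, 0.074, 0.068 and 0.093. Without batches 1 and 2, chosen after seeing the data, UCHL1, NEFL, NEFM, NEFH, MAPT and GAP43 were at 0.18, 0.26, 0.21, 0.37, 0.21 and 0.30 with TGF-β. TUBB3, UCHL1, NEFL, NEFM, INA, STMN2 and GAP43 were at -0.066, 0.080, 0.056, 0.099, -0.10, -0.037 and 0.0094 with IL-4+IL-13, and TUBB3, UCHL1, NEFH and GAP43 at -0.021, 0.074, 0.093 and 0.075 with IL-6. There, 3 genes passed between TGF-β and IL-4+IL-13, beside 7.16% of all genes. For any treatment 1 gene passed, PRPH, beside 3.80% of all genes.

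Leaving out each batch in turn gave these ranges where a sign changed. The neuron marker level was -0.11 to 0.14 with TGF-β, -0.19 to 0.092 with IL-4+IL-13 and -0.18 to 0.060 with IL-6. With TGF-β, UCHL1 was -0.16 to 0.065, NEFL -0.38 to 0.15, NEFM -0.31 to 0.064, NEFH -0.49 to 0.27, INA -0.081 to 0.15, MAPT -0.12 to 0.17, STMN2 -0.034 to 0.18 and GAP43 -0.17 to 0.22. With IL-4+IL-13, UCHL1 was -0.17 to 0.023, NEFL -0.32 to 0.14, NEFM -0.25 to 0.077, NEFH -0.62 to 0.043, PRPH -0.30 to 0.13, INA -0.22 to 0.15, MAPT -0.17 to 0.19, STMN2 -0.14 to 0.20 and GAP43 -0.27 to 0.091. With IL-6, NEFH was -0.59 to 0.10, PRPH -0.022 to 0.32, INA -0.19 to 0.068, MAPT -0.24 to 0.064, STMN2 -0.049 to 0.17 and GAP43 -0.24 to 0.094. The slope of TUBB3 was -0.17 to 0.89.

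Counts over all genes moved by more than 1.5 times. DESeq2 called 504 genes with TGF-β, 574 with IL-4+IL-13 and 132 with IL-6, where edgeR called 0.347%, 0.633% and 0% of 29377. Without the IL-6 libraries, edgeR called 12 with TGF-β and 93 with IL-4+IL-13. Leaving out batch 3 or batch 5 left 1 gene with TGF-β, and over all single batches left out the counts were 1 to 133 with TGF-β, 76 to 234 with IL-4+IL-13 and 0 with IL-6. With the neuron marker level, all-gene calls went from 3625 to 1396 without the Vehicle library of batch 2, 1296 without batch 2, 7979 without batch 1, 661 without both, 853 with the marker ratio and 12610 with no replicate block.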
